A study of Mus musculus with 8 samples.

Results

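The mitochondrial ribosomal protein genes were examined in islets of mice that overexpress UCP2 in β-cells. They were taken from the array's annotation as every probe whose gene symbol starts with Mrpl or Mrps and a number. This gave 78 genes of 26894 named genes on the array, 49 named for the large subunit (Mrpl) and 29 for the small subunit (Mrps), with 122 probes in all. Each gene was represented by its probe with the highest mean in the deposited normalized table, which does not use the difference between the genotypes. βUCP2Tg mice carry a mouse *Ucp2* cDNA behind the rat *Ins2* promoter and a rabbit β-globin intron, were backcrossed to C57BL6/J more than 10 times, and were compared with littermate wild-type (WT) mice without the transgene. The mice were male, and the study's methods give an age of 8 to 20 weeks over all experiments and of 8 to 12 weeks for islet isolation, with no age per sample. Islets of both genotypes were kept for 8 h in RPMI medium with 200 mg/dL (11.1 mmol/L) glucose and serum before RNA was taken. There were 4 βUCP2Tg and 4 WT samples, each on its own one-colour Agilent array. The labels do not say whether a sample is 1 mouse or a pool, so p-values describe the spread between these samples.

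Mitochondria make a small set of respiratory chain proteins from their own DNA, on a ribosome of their own. The RNAs of this mitoribosome come from mitochondrial DNA, while its proteins are encoded in the nucleus, made in the cytosol and imported. Some of these proteins descend from bacterial ribosomal proteins, and others are found only in mitochondria. In β-cells, respiratory chain activity links glucose metabolism to insulin release.

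The signal of every selected probe was well above background on all 8 arrays, so that all 78 genes were measured in both genotypes. Values are log2 of the background-corrected signal minus the 75th percentile of the array, so 0 is the level of that percentile and a difference of 1 is a 2-fold change. Over all probes the arrays correlated at 0.966 to 0.994, and between 33191 and 36320 probes per array were above background. *Ucp2*, measured as a check of the labels, was 7.71, 7.50, 7.33 and 6.99 in βUCP2Tg and 1.18, 0.92, 1.03 and 1.46 in WT. β-cell markers were present throughout, with all 9 tested and a summed signal of 1136 to 1514 times the array's 75th percentile in βUCP2Tg and 1460 to 1499 times in WT. All arrays lay on one slide with each genotype in its own row, so position and genotype cannot be told apart.

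No mitochondrial ribosomal protein gene passed the test for a difference between βUCP2Tg and WT islets. A probe was called at a Benjamini-Hochberg adjusted p under 0.05 from limma over all 35363 probes tested, together with a fold change over 1.5. Of all probes tested, 0.41% were called, and of the 117 member probes that were tested, 0 were. The smallest adjusted p among the 78 genes was 0.103. At an unadjusted p under 0.05, 7 members were higher and 3 were lower in βUCP2Tg. These are 8.97% and 3.85% of the 78, beside 12.9% higher and 11.6% lower among all 17857 tested genes. Over both directions these were 10 members, and 4 to 22 with single arrays left out. All probes under that p numbered 8922, and 5646 to 12229 with single arrays left out. Leaving out WT replicate 1 gave 2 calls, of *Mrpl34* and *Mrpl36*, at log2 differences of 0.60 and 0.68, and in that setting 10.8% of all probes were called.

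The intervals of the differences were narrow beside the 1.5-fold limit, but only 10 of the 78 excluded 0. The 95% interval of the fold change stayed within 1.5-fold in either direction for 74 of the 78 genes. For the other 4, *Mrpl34*, *Mrpl36*, *Mrpl40* and *Mrpl42*, it reached above 1.5-fold, and for none did it reach a 1.5-fold decrease. The median half-width of the interval was 0.25 on the log2 scale. The log2 differences ran from -0.34 to 0.53, and 10 genes differed by more than 1.2-fold. The plot of all members' differences shows both subunits spread around 0 with few intervals clear of it.

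**Figure D1:**
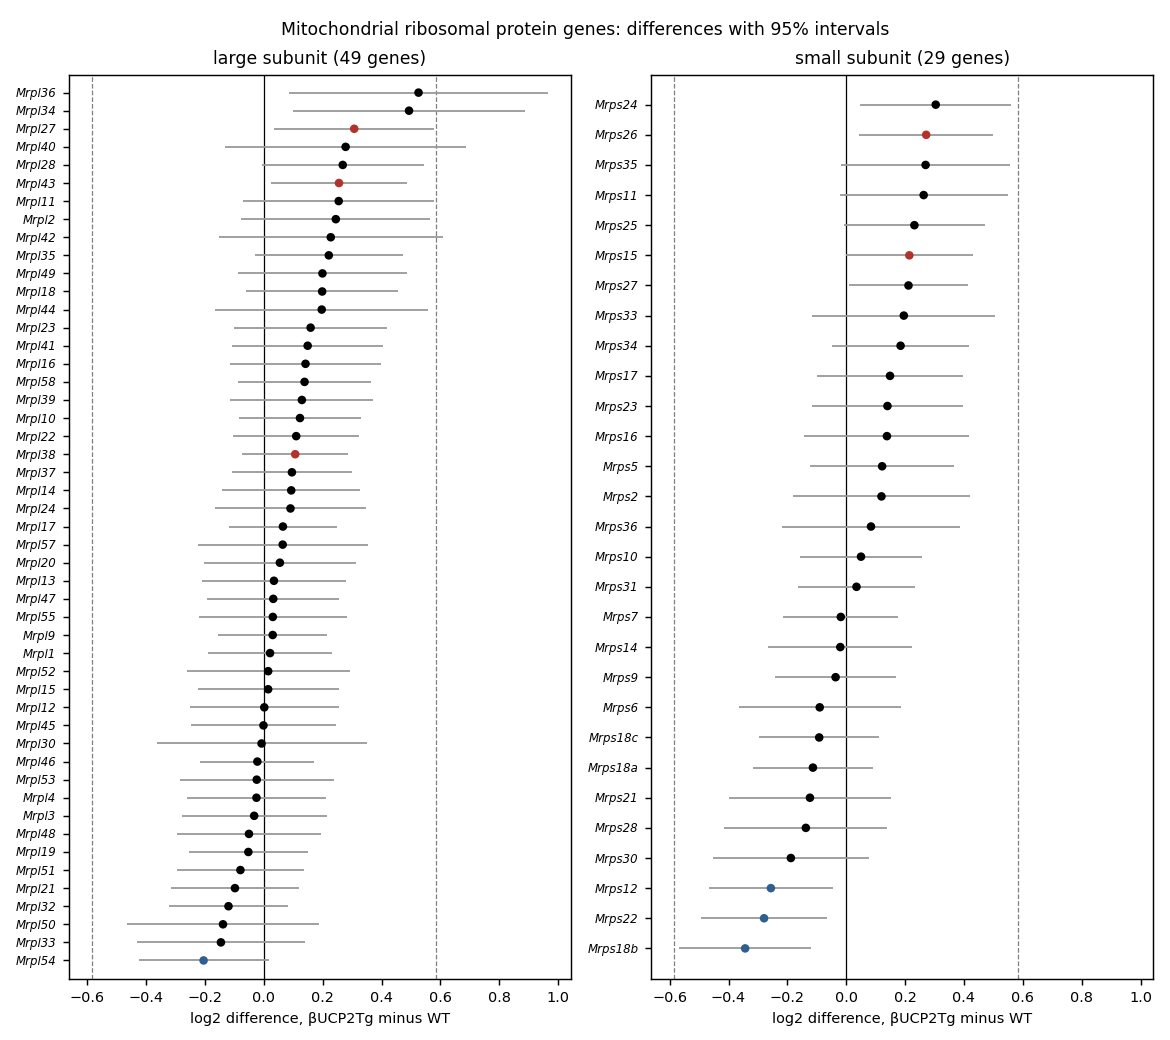
Log2 difference between 4 βUCP2Tg and 4 WT arrays (x axis) for each of the 49 large and 29 small subunit genes (y axis), with 95% intervals from limma as grey lines. Dashed lines mark 1.5-fold, red points are the 5 genes with every βUCP2Tg array above every WT array, and blue points are the 4 with every βUCP2Tg array below. Only intervals at the upper end of the large subunit panel cross a dashed line.

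Of the 78 members, 52 had a positive and 26 a negative difference, so that 66.7% lay above 0 beside 54.0% of all tested genes. The median log2 difference was 0.06 for the large subunit and 0.08 for the small subunit, beside 0.03 for all genes. The middle 50% of members lay between -0.02 and 0.20, and the middle 50% of all genes between -0.17 and 0.23. Counted by every array of one genotype lying above every array of the other, 5 members were higher (6.41%) and 4 were lower (5.13%), beside 6.36% higher and 6.74% lower among all tested genes. The members' shares were close to the background in this setting. After quantile normalization 10 members were higher (12.8%) and 4 lower (5.13%), beside 8.20% and 5.08% of all genes, and with median scaling 4 were higher (5.13%) and 2 lower (2.56%), beside 6.69% and 5.58%.

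In the large subunit, 35 of 49 genes had a positive difference, and 3 members were higher without overlap of the groups. *Mrpl27*, a homologue of the bacterial protein near the peptidyl transferase centre, read 3.68, 4.03, 3.84 and 3.65 in βUCP2Tg and 3.58, 3.61, 3.46 and 3.32 in WT. Every βUCP2Tg array lay above every WT array, at a difference of 0.31 (95% interval 0.04 to 0.58, adjusted p = 0.161). Its other tested probes were at 0.33, 0.34 and -0.53, with overlapping groups on those at 0.34 and -0.53. *Mrpl43*, a protein particular to mitochondria, read 3.48, 3.57, 3.40 and 3.30 in βUCP2Tg and 3.28, 3.16, 3.03 and 3.26 in WT. The lowest βUCP2Tg array lay just above the highest WT array, at a difference of 0.26 (95% interval 0.03 to 0.48, adjusted p = 0.165). *Mrpl38*, which sits at the central protuberance of the subunit, read 0.12, 0.11, 0.13 and 0.10 in βUCP2Tg and -0.04, -0.05, 0.04 and 0.10 in WT. The gap between its groups was narrow and the difference only 0.11 (95% interval -0.07 to 0.29, adjusted p = 0.423), which turned to -0.09 as the mean of its tested probes.

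*Mrpl54* was the single large subunit gene that was lower without overlap. It read 3.53, 3.61, 3.51 and 3.57 in βUCP2Tg and 3.66, 3.88, 3.62 and 3.89 in WT. The difference was -0.20 (95% interval -0.43 to 0.02, adjusted p = 0.224), and the βUCP2Tg arrays were closer together than the WT arrays.

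The largest differences of the family were those of *Mrpl36* and *Mrpl34*, small proteins of bacterial descent, which are named here after their values were seen. *Mrpl36* read 3.50, 3.64, 3.53 and 3.25 in βUCP2Tg and 3.43, 2.59, 2.70 and 3.09 in WT. *Mrpl34* read 1.94, 1.85, 1.83 and 1.57 in βUCP2Tg and 1.64, 0.97, 1.08 and 1.54 in WT. For both genes WT replicates 2 and 3 were the low arrays, while WT replicate 1 lay within the βUCP2Tg range. *Mrpl36* was 1.44-fold higher in the mean (95% interval 1.06 to 1.95, adjusted p = 0.147) and *Mrpl34* 1.41-fold higher (95% interval 1.07 to 1.85, adjusted p = 0.137), and in both the groups overlapped.

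In the small subunit, the largest difference was a negative one, that of *Mrps18b*, and the 3 most negative genes had no overlap of the groups. *Mrps18b* is 1 of 3 mammalian relatives of the bacterial S18 protein. It read 3.18, 3.22, 3.22 and 3.28 in βUCP2Tg and 3.48, 3.60, 3.43 and 3.76 in WT. All βUCP2Tg arrays lay below all WT arrays, with means of 3.22 ± 0.04 and 3.57 ± 0.15 (SD, n = 4 each), a fold of 0.788 (95% interval 0.675 to 0.921) and an adjusted p of 0.103. The same direction was seen on all 3 of its probes, at -0.34, -0.32 and -0.31, each without overlap. The first 30 bases of the 3 probes, as the deposited normalized table gives them, are printed to show which share a site.
Mrps18b selected probe: ggtgtgtccctgatttaaacctcctggctc
Mrps18b overlapping probe: gtccctgatttaaacctcctggctcagctt
Mrps18b separate probe: acagcggacccgaaagacatgtattcgtaa
The first and the second are shifted copies of one site and share 55 bases, so the probes give 2 separate sites rather than 3. The other members of this trio were *Mrps18a* at -0.11 (95% interval -0.32 to 0.09) and *Mrps18c* at -0.09 (95% interval -0.30 to 0.11).

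*Mrps22*, a small subunit protein particular to mitochondria, read 0.67, 0.66, 0.64 and 0.82 in βUCP2Tg and 1.01, 0.96, 0.83 and 1.09 in WT. The highest βUCP2Tg array lay just under the lowest WT array, at a difference of -0.28 (95% interval -0.49 to -0.06, adjusted p = 0.129). The other tested probe of *Mrps22* was at -0.16 with overlapping groups (adjusted p = 0.389). *Mrps12*, which lies at the decoding centre, read 4.20, 4.17, 4.01 and 4.14 in βUCP2Tg and 4.29, 4.42, 4.32 and 4.52 in WT. Its difference was -0.26 (95% interval -0.47 to -0.04, adjusted p = 0.144), with the groups apart.

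*Mrps26* and *Mrps15* were the small subunit genes that were higher without overlap. *Mrps26*, particular to mitochondria, read 3.90, 3.89, 3.79 and 3.65 in βUCP2Tg and 3.63, 3.42, 3.48 and 3.62 in WT, at a difference of 0.27 (95% interval 0.04 to 0.50, adjusted p = 0.147). *Mrps15*, of bacterial descent, read 2.66, 2.71, 2.58 and 2.61 in βUCP2Tg and 2.52, 2.35, 2.29 and 2.55 in WT, at a difference of 0.21 (95% interval -0.0019 to 0.43, adjusted p = 0.201), which turned to -0.04 as the mean of its tested probes. In both genes WT replicates 2 and 3 were again the lowest arrays. *Mrps24* at 0.30 (adjusted p = 0.149) and the RNA-binding protein gene *Mrps27* at 0.21 (adjusted p = 0.182), named after their values were seen, had an unadjusted p under 0.05 with overlapping groups. For a gene whose groups do not overlap, the exact two-sided permutation test of 4 against 4 gives 0.0286, which is the smallest p that this design allows.

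**Figure D2:**
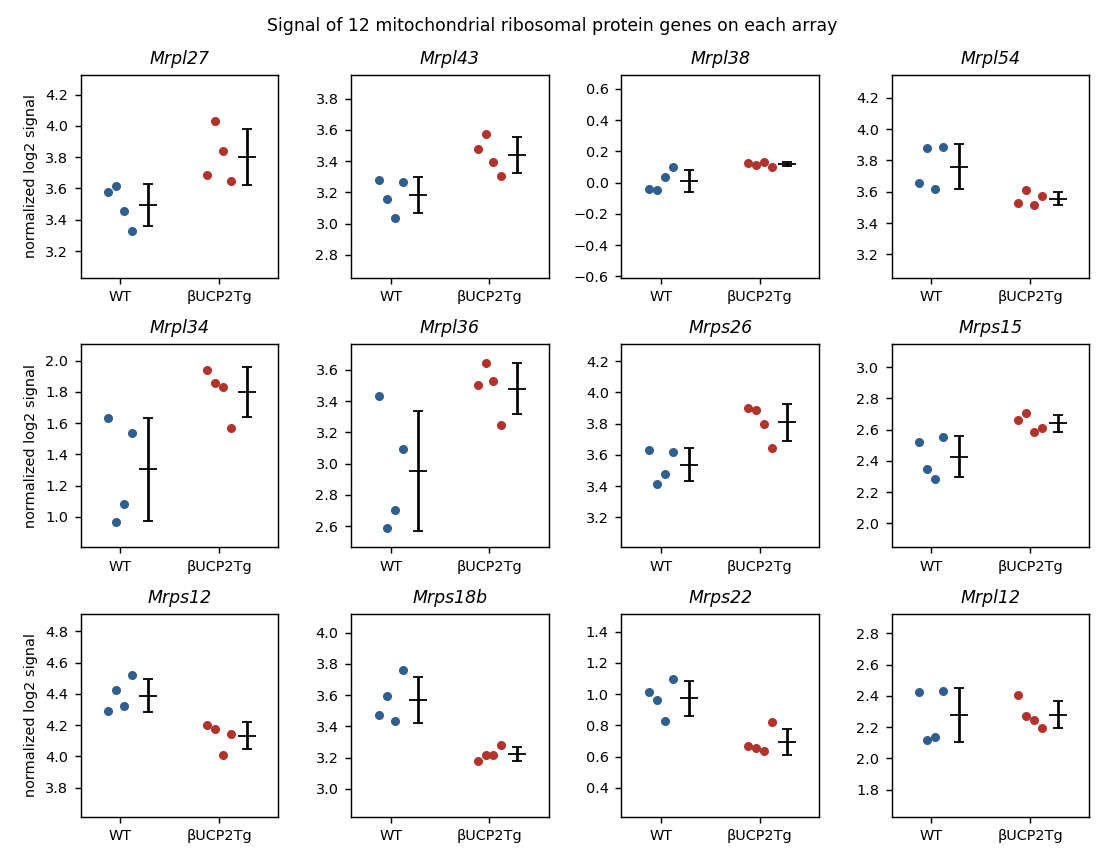
Normalized log2 signal (y axis) of 12 genes on each of the 4 WT (blue) and 4 βUCP2Tg (red) arrays, with the mean and SD beside the points, and with every panel spanning the same number of log2 units. The 9 genes without overlap of the groups are shown with *Mrpl34*, *Mrpl36* and *Mrpl12*. *Mrps18b*, *Mrps22*, *Mrps12* and *Mrpl54* lie lower in βUCP2Tg, the WT points of *Mrpl34* and *Mrpl36* spread widely, and *Mrpl12* has the same mean in both groups.

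Among the members chosen for their known roles, 3 had differences close to 0. *Mrpl12*, part of the stalk that recruits translation factors, had means of 2.28 ± 0.09 in βUCP2Tg and 2.28 ± 0.17 in WT (SD, n = 4 each), with a 95% interval of the fold of 0.84 to 1.19. *Mrpl45*, which faces the inner membrane near the exit of the tunnel, had means of 1.51 ± 0.16 and 1.51 ± 0.08, with a 95% interval of 0.843 to 1.18. *Mrps7*, of the bacterial S7 family in the head of the small subunit, had a log2 difference of -0.02 (95% interval -0.21 to 0.18). The signs of these 3 genes changed with the processing.

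*Mrpl11*, at the base of the stalk, had a difference of 0.25 (95% interval -0.07 to 0.58), and *Mrpl44*, an RNase III-like protein, one of 0.20 (95% interval -0.17 to 0.56). *Mrps16* was at 0.14 (95% interval -0.14 to 0.42) and *Mrps34* at 0.18 (95% interval -0.05 to 0.42). None of these 4 passed the test, with adjusted p between 0.288 and 0.506.

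The genes were also split into a bacterial and a mitochondrial group, mostly by the number in their names. This is a rough guide to descent that misplaces some genes with bacterial relatives. In the large subunit, the 29 genes of the bacterial group had a median difference of 0.06 and the 20 of the mitochondrial group one of 0.08. In the small subunit, the 16 genes of the bacterial group had a median of -0.02, with 7 above 0. The 13 of the mitochondrial group, which includes *Mrps24*, had a median of 0.18, with 10 above 0. The difference between these groups was not tested. Structures place *Mrps30* and *Mrps18a* in the large subunit, and *Mrps36* was later found not to belong to the ribosome. With that assignment the medians were 0.06 for 51 large and 0.12 for 26 small subunit genes.

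Cytosolic ribosomal proteins and complex I subunits were taken as gene groups for comparison. The 75 cytosolic ribosomal protein genes had a median of -0.05, with 20 above and 55 below 0, and 0 were called. The 37 complex I subunit genes had a median of 0.02, with 22 above and 15 below 0, and 0 were called. At an unadjusted p under 0.05 there were 0 cytosolic ribosomal protein genes in either direction, and 1 higher (2.70%) and 3 lower (8.11%) complex I genes, beside 12.9% and 11.6% of all genes.

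Across single arrays the mitochondrial ribosomal protein genes moved together, and the arrays within a genotype differed more than the genotypes did. As a deviation from each gene's mean over the 8 arrays, the median of the 78 members was 0.07, 0.10, 0.02 and -0.04 on βUCP2Tg replicates 1 to 4, and 0.07, -0.12, -0.18 and 0.08 on WT replicates 1 to 4. Large and small subunit genes followed the same course, at -0.12 and -0.13 on WT replicate 2 and at -0.18 and -0.17 on WT replicate 3. WT replicates 2 and 3 thus lay below both other WT arrays and below every βUCP2Tg array.

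WT replicate 3 gave the lowest value of the 8 arrays for 36 of the 78 members and WT replicate 2 for 21 more. Together this was 73.1% of the members, beside 40.9% of all tested genes. The highest value fell on βUCP2Tg replicate 2 for 27 members, on WT replicate 4 for 21 and on WT replicate 1 for 17. The SD between arrays was larger in WT than in βUCP2Tg for 66 of the 78 members (84.6%, beside 75.6% of all genes), with a median of 0.16 in WT and 0.09 in βUCP2Tg.

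**Figure D3:**
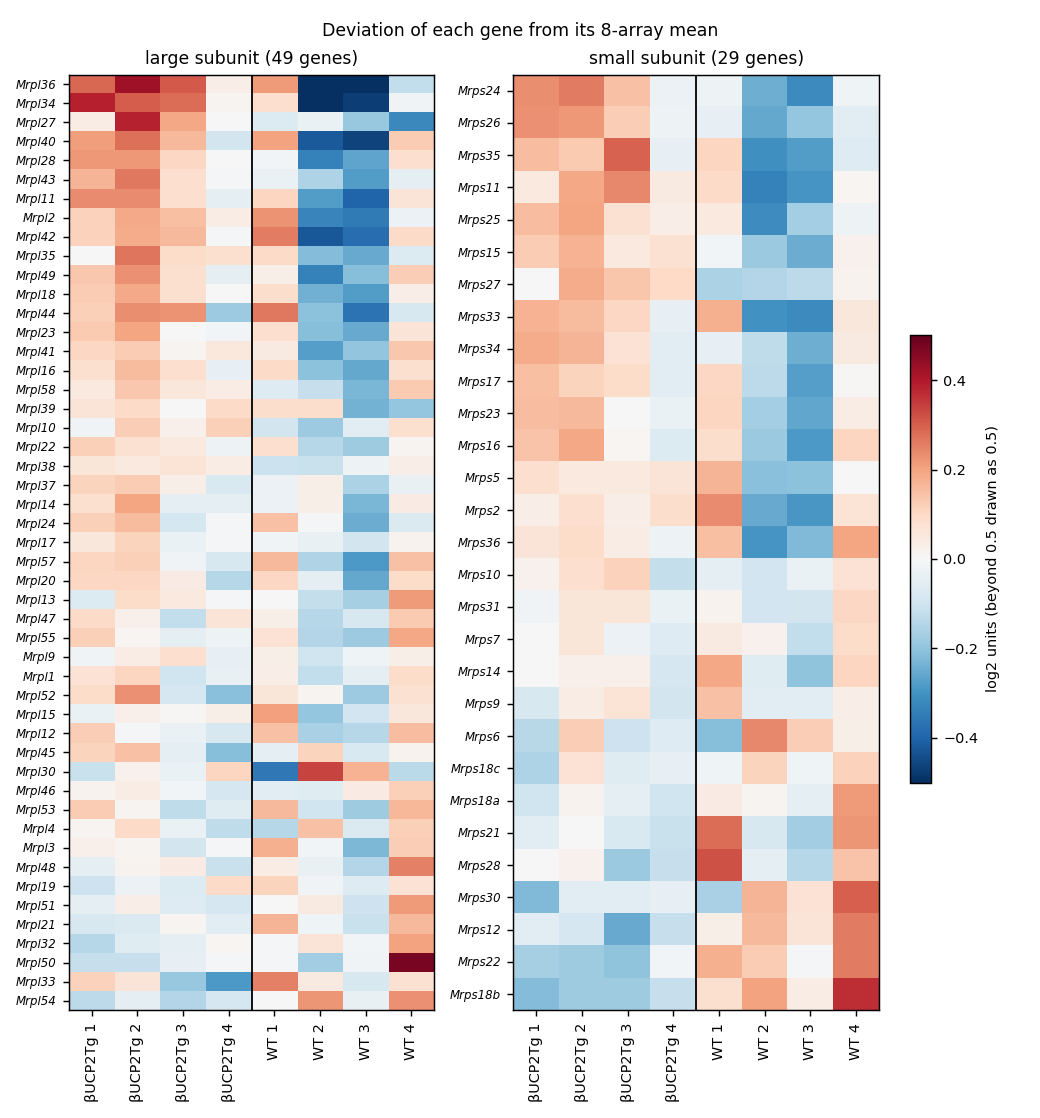
Deviation of each gene from its own mean over 8 arrays, in log2 units, for 49 large (left) and 29 small (right) subunit genes in rows, ordered by the difference between genotypes, and the 8 arrays in columns, with a line between βUCP2Tg and WT. WT replicates 2 and 3 are blue for most genes and pale or red in the bottom rows, such as *Mrps18b* and *Mrps22*.

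Not every member followed this course. *Mrps18b*, *Mrps12* and *Mrpl54* were at or above their own mean, or close to it, on WT replicates 2 and 3. *Mrpl30*, named here after its values were seen, read 2.42 on WT replicate 1 and 3.12 and 2.95 on replicates 2 and 3, against the direction of most members, and 2.67 to 2.89 in βUCP2Tg. Over all members the range of the 8 arrays ran from 0.18 for *Mrpl9* to 1.05 for *Mrpl36*, with a median of 0.42.

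Complex I genes shared the pattern, with medians of -0.12 and -0.16 on WT replicates 2 and 3, and cytosolic ribosomal protein genes did not, at 0.09 and -0.01. All genes together were at -0.04 and -0.05 on these arrays. The same arrays carried the highest signal of exocrine acinar cells, a common admixture of isolated islets. The summed signal of the 12 acinar markers tested was 232 and 326 times the array's 75th percentile on WT replicates 2 and 3, 113 and 16.4 on WT replicates 1 and 4, and 10.96, 30.9, 13.9 and 183 on βUCP2Tg replicates 1 to 4. Of the 13 acinar markers, 1, *Ptf1a*, was above background on no array, and all 12 tested had negative differences, with a median of -1.75 and 0 called.

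With the acinar signal as a covariate, an alternative chosen after seeing the data, 40 of the 78 members had positive differences, the median was 0.04 for the large and -0.02 for the small subunit, and 0 members were called. Beyond this the part of acinar cells in the pattern was not tested. In whole islets, fewer cells of a type and less RNA per cell cannot be told apart. The summed signal of macrophage markers was lower on every βUCP2Tg array, at 13.8 to 17.8 against 22.1 to 26.2 in WT, with 1 of 7 tested called and 6 of 7 at negative differences. The summed markers of endothelium ran from 22.8 to 27.7 in βUCP2Tg and 24.1 to 29.97 in WT, of duct from 11.9 to 15.6 and 6.49 to 13.5, and of stroma from 1.90 to 2.21 and 1.06 to 2.63. Other endocrine cells gave 801 to 1012 in βUCP2Tg and 699 to 837 in WT. Of the single markers tested, 1 of 3 of duct (median -0.88), 4 of 8 of endothelium (0.19), 4 of 5 of stroma (0.40) and 6 of 8 of other endocrine cells (0.20) had positive log2 differences, so that for duct the sum and most markers ran in opposite directions. The part of these cell types in the members' differences was not tested.

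**Figure D4:**
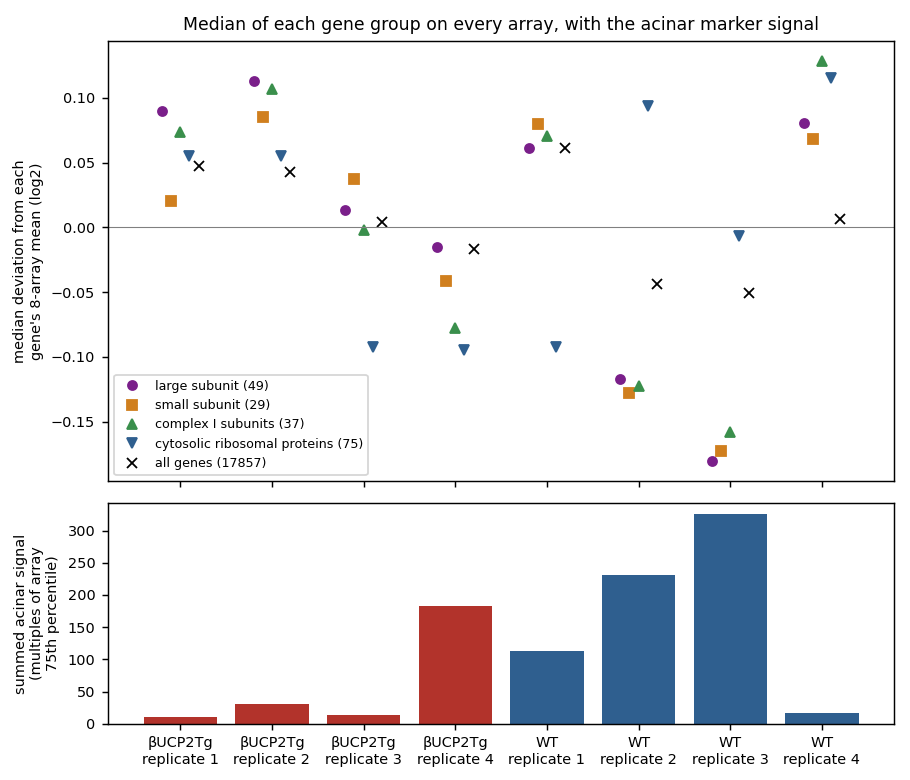
Upper panel, median deviation from each gene's 8-array mean (log2, y axis) on every array for large and small subunit genes, complex I subunits, cytosolic ribosomal proteins and all tested genes. Lower panel, bars for the summed signal of 12 acinar markers in multiples of the array's 75th percentile, red for βUCP2Tg and blue for WT. Both subunits are lowest on WT replicates 2 and 3, where the acinar bars are highest.

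For 30 members more than 1 probe was tested, and in 13 of them the probes disagreed in sign. The median gap between the highest and the lowest probe was 0.11 on the log2 scale, and the gap passed 1.5-fold in 2 genes, *Mrpl27* and *Mrps36*. *Mrpl27* was higher on 3 probes for the RefSeq transcript, at 0.31, 0.33 and 0.34, and lower at -0.53 on another, which the array annotates by an expressed sequence tag. The first 30 bases of the selected and of the discordant probe are shown. Where the discordant probe lies on the transcript was not tested.
Mrpl27 selected probe: ccatctataatctcttcttgtgtgtctgaa
Mrpl27 discordant probe: acacgtgagtaacttagttgtaatctcgaa
On the discordant probe, the βUCP2Tg arrays read -3.80, -4.25, -4.18 and -3.68 and the WT arrays -3.70, -3.27, -3.05 and -3.78, so the groups overlapped and WT replicates 2 and 3 were the highest.

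Several of the discordant probes shared a kind of annotation. Of the 117 tested member probes, 104 carry a RefSeq accession, with a median difference of 0.09 and 31.7% below 0, and 12 carry an Ensembl transcript accession only, with a median of -0.29 and 8 of 12 below 0. Over all tested probes the same split gave 0.01 for 23334 RefSeq probes and -0.16 for 5056 Ensembl probes, with 48.3% and 69.1% below 0. None of the 12 was the selected probe of its gene. The Ensembl probes were also dimmer, with a median signal of -2.99 beside 1.91 for the RefSeq probes of members. Over all tested probes these medians were -2.55 and -0.60. Whether annotation or signal level goes with the negative differences was not tested. Examples, named after their values were seen, are a second probe of *Mrps36* at -0.71 (adjusted p = 0.102) and a second probe of *Mrps18a* at -0.61, whose adjusted p of 0.0885 was the smallest of all member probes. The selected probes of these genes were at 0.08 and -0.11.
Mrps36 selected probe: atacagaaggaaacctatgtctcaagagga
Mrps36 second probe: tacgtcaataatgcatatataactcaatct
Mrps18a selected probe: aagatgatgcattagtgggagcaggacttc
Mrps18a second probe: acttatgctgggctaacctgttgtcttaaa
*Mrps15* and *Mrpl38*, both higher without overlap on the selected probe, had Ensembl probes at -0.29 and -0.39.

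**Figure D5:**
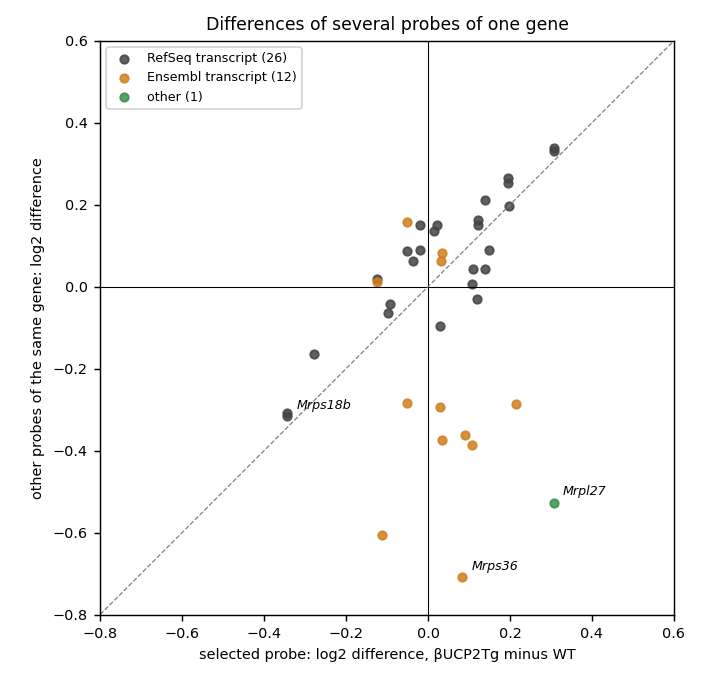
For members with several tested probes, the log2 difference of the selected probe (x axis) against that of each other probe of the same gene (y axis), coloured by the accession the array gives. The dashed line marks equality. The 26 RefSeq probes lie near the line, and most of the 12 Ensembl probes and the probe of *Mrpl27* annotated by an expressed sequence tag lie below it.

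Short sequences in the promoters, which the choice of genes did not use, were counted in part of the family. RefSeq windows from 250 bases before to 50 bases after a start, on GRCm38.p6, were at hand for 69 of the 78 genes. The ETS letters CCGGAAG were found on either strand for 37.7% of these genes, beside 9.93% of all 27025 genes with a window and 16.5% of the 12987 that were tested here. The NRF1 letters GCGCATGCG were found for 10.1%, beside 1.95% and 3.42%. The YY1 letters AAGATGGCG were found for 11.6%, beside 1.64% and 2.90%. The Sp1 letters GGGCGG were found for 49.3%, beside 38.2% and 60.9%, so that they were no more common than among tested genes. ETS factors, NRF1 and YY1 are known regulators of nuclear genes for mitochondria. A match describes letters, not a bound site, and the ETS and YY1 letters can overlap by AAG.

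Windows of 4 members on both sides of 0 are printed, each the 120 bases that end at the annotated start, with the matched letters of any motif in capitals.
Mrpl43, chr19:45006443-45006562, minus strand: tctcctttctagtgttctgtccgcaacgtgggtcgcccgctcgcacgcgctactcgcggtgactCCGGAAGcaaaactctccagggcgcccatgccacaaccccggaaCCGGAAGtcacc
Mrpl27, chr11:94653671-94653790, plus strand: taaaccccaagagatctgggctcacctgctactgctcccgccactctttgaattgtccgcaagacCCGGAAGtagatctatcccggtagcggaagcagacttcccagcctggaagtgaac
Mrps22, chr9:98601680-98601799, minus strand: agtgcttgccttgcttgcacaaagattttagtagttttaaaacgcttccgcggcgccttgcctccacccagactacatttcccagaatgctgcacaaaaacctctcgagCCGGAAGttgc
Mrpl36, chr13:73330889-73331008, plus strand: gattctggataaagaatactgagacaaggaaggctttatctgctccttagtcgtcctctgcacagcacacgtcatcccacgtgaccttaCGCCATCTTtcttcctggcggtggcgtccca
The ETS letters stood in the windows of *Mrpl43* and *Mrpl27*, which were higher, and of *Mrps22*, which was lower, and *Mrpl36* holds the YY1 letters on the reverse strand. The median log2 difference was 0.04 for the 26 genes with ETS letters and 0.10 for the others, and 0.22 for the 8 genes with YY1 letters and 0.06 for the others. These medians were not tested.

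Of 5 mitoribosomal proteins with other names 0 were called, 2 had a positive difference, and the median was -0.02. *Gadd45gip1* (*Crif1*), a large subunit protein near the tunnel exit, read 2.70, 2.74, 2.45 and 2.39 in βUCP2Tg and 2.45, 2.13, 2.03 and 2.60 in WT. The groups overlapped and the difference was 0.27 (95% interval -0.08 to 0.63, adjusted p = 0.303), with WT replicates 2 and 3 again lowest. *Dap3*, a GTP-binding protein of the small subunit, was at -0.20 (95% interval -0.43 to 0.03) and *Ptcd3*, an RNA-binding protein of the same subunit, at -0.02 (95% interval -0.20 to 0.16).

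Factors that assemble the mitoribosome had a median of 0.16 over 26 genes, with 17 above 0 and 0 called. At an unadjusted p under 0.05, 6 were higher and 0 lower, which is 23.1% beside 12.9% of all genes. The 6, named after their values were seen, were *Mpv17l2* (0.68, adjusted p = 0.0889), *Ybey* (0.61), *Mtg1* (0.53), *Tfb1m* (0.47), *Rbfa* (0.32) and *Eral1* (0.27, adjusted p = 0.11). They include the 12S rRNA methyltransferase *Tfb1m*. The 12S rRNA chaperone *Eral1* was the 1 assembly gene that was higher without overlap of the groups. *Mterf3*, likewise named after its values were seen, was lower without overlap, at -0.15 (adjusted p = 0.255).

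Among 17 factors of mitochondrial translation the median was 0.08 and 0 were called. *Tufm*, the elongation factor that brings aminoacyl-tRNA to the ribosome, was at 0.18 (95% interval -0.09 to 0.46). Of genes named after their values were seen, the initiation factor *Mtif2* was at -0.49 (adjusted p = 0.114) and *Oxa1l*, which inserts new chains into the membrane, at 0.27 without overlap (adjusted p = 0.161). The 22 genes that charge mitochondrial tRNAs had a median of 0.06, with 5 higher (22.7%) and 1 lower (4.55%) at an unadjusted p under 0.05, beside 12.9% and 11.6% of all genes, and 0 called. *Pars2*, which charges the proline tRNA and is named after its values were seen, was higher without overlap, at 0.39 (adjusted p = 0.107).

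Genes that copy and transcribe mitochondrial DNA had a median of 0.13 over 10 genes, with 8 above 0 and 0 called. *Tfam*, the packaging and transcription factor, was at 0.32 (95% interval -0.0036 to 0.65, adjusted p = 0.202), and the polymerase *Polrmt* at 0.16 (95% interval -0.11 to 0.43, adjusted p = 0.415). The 11 genes encoded in mitochondrial DNA had a median of 0.07 and 0 were called. *ND1*, a complex I subunit made on the mitoribosome and named after its values were seen, read 3.73, 3.85, 3.88 and 4.04 in βUCP2Tg and 3.53, 3.32, 3.50 and 3.64 in WT, without overlap and at a difference of 0.38 (95% interval 0.13 to 0.62, adjusted p = 0.102). These arrays measure mRNA, and the assembled mitoribosome and its activity were not measured.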

How the data were processed

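The authors scanned 8 one-colour arrays, and the deposited scanner files give the background-subtracted intensity of each spot (Feature Extraction 10.7.3.1 in the file headers, 9.1 in the submitters' processing notes). The authors' deposited GeneSpring table holds log2 values shifted by a constant per array, used to choose each gene's probe and as an alternative. Its columns of the authors' fold changes and p-values were not used.

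Control and outlier spots of the scanner files were dropped, the processed intensity was put on the log2 scale and scaled to each array's 75th percentile by subtraction, and spots of a probe were averaged. No spot was saturated. A probe was measured where at least 50% of its spots were well above background and was tested if measured on at least 4 of 8 arrays. The genotypes were compared by limma (version 3.58.1, functions lmFit and eBayes) in R 4.3.3, on files read with data.table (version 1.17.8), with Benjamini-Hochberg adjustment over all probes tested. The number of arrays, 4 per group, limits the precision.

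Genes named are called members, per subunit up to 4 in each direction without overlap of the groups, 9 fixed members, 6 fixed pathway genes and *Ucp2*. Other genes named were chosen after their values were seen. The members and lists were chosen with earlier results of these data known. Alternatives were other filters, scalings, background correction, tests, probe averaging, subunit assignment, a replicate block and leaving out each array. Promoter windows came from RefSeq (GRCm38.p6), with no coordinates taken for the array's own build (mm9). Gene symbols came from the array's annotation in the deposited table. Tables and plots used Python 3.11.15, pandas 2.3.3, numpy 2.4.6 and matplotlib 3.10.9.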

Additional observations from a re-analysis of the deposited data

How the results depend on the processing

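The number of members called was 0 under every alternative run except leaving out single arrays, where it ranged from 0 to 2, with 2 without WT replicate 1. Members without overlap of the groups numbered 9 (5 higher, 4 lower), 14 after quantile normalization (10, 4), 6 with median scaling and in the deposited values (4, 2 each), 7 with normexp (5, 2), 7 as the mean of all probes (3, 4), and 9 to 18 when single arrays were left out, with 17 without βUCP2Tg replicate 4 and 18 without WT replicate 1. As shares these were 11.5% of members beside 13.1% of all genes in the main setting and 17.9% beside 13.3% after quantile normalization. Median scaling gave 7.69% beside 12.3%, the deposited values 7.69% beside 12.7%, and normexp 8.97% beside 17.2%. The mean of all probes gave 7 of 78 members beside 13.8% of all genes. Without βUCP2Tg replicate 4 the shares were 21.8% beside 26.7%, and without WT replicate 1 they were 23.1% beside 32.4%. With any other single array left out, they were 11.5% to 16.7% beside 14.2% to 18.1%. The medians of both subunits kept their sign, at 0.03 to 0.10 for the large and 0.03 to 0.15 for the small subunit with single arrays left out, except that with the acinar signal as a covariate, chosen after seeing the data, the small subunit's median was -0.021. With the replicate block, which cannot change whether groups overlap, 0 members were called, while the probes called over all genes fell from 145 to 14. Same-numbered arrays deviated with correlations of 0.44, -0.05, -0.01 and -0.24, so the numbers were not taken to pair the samples. Probes called over all genes numbered 816 with normexp correction, 379 with an intensity trend, 237 with probes above background on all arrays, 21 with no filter, 26 by the methods' t-test and 17 with the acinar covariate, and 8 to 3759 with single arrays left out. Differences close to 0 changed sign. *Mrps7* (-0.02) was at 0.033 after quantile normalization, 0.015 with median scaling, 0.096 with normexp, 0.036 as the mean of its probes and -0.062 to 0.0087 with single arrays left out. *Ptcd3* (-0.02) was at 0.0054, 0.014 and 0.016 under the same first 3 settings and -0.035 to 0.00019 with single arrays left out. *Mrpl45* (-0.0014) was at 0.032 with median scaling, 0.016 in the deposited values, 0.0037 with outlier spots kept and -0.050 to 0.069 with single arrays left out. *Mrpl12* (0.0015) was at -0.013 with normexp, -0.099 with the acinar covariate and -0.052 to 0.053 with single arrays left out. As the mean of all tested probes, *Mrpl38* was at -0.091 and *Mrps15* at -0.036. The cause of these changes was not tested. The settings moved the median of all probes by less than 0.1. The low signal of the Ensembl-annotated probes limits what they can show, and some were measured on fewer than 8 arrays.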
